A study of Zea mays with 9 samples.

Results

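The 6 genes described here take up nitrate, help its transporters, reduce nitrite or sense nitrate in maize. They were chosen by identifier, as the rows nrt1.1 (LOC542511), nrt1.2 (LOC778429), NAR2.1 (LOC778437), NAR2.2 (LOC778428), nir (LOC542264) and NLP8 (LOC100381753) out of 30184 genes in the deposited expression table. The choice was made with earlier results of these data known. All 6 rows were found, and 5 of them passed the filter on low values. RNA came from the second leaf of seedlings of the maize hybrid CG108 x CG102, harvested at an age of 9 days. The weed-free control had a red to far-red ratio (R:FR) near 1.5. The biological low R:FR treatment, with a ratio near 0.6, used a grass stand as surrogate weed in the soil around each cup, and the artificial low R:FR treatment reached the same ratio with far-red lamps. These ratios are those of the sample labels, and the text of the study gives other ratios for the same treatments. By the labels the incoming photosynthetic photon flux was kept alike, which does not cover the added far-red light. The design kept roots apart so that light quality was the variable under study. Around the cups, the biological pots held potting mix with live grass, and the other pots held baked clay granules. The biological group thus differed from the others in more than light quality. Each group held 3 RNA-seq libraries, and each library pooled leaves of 3 plants, so the spread between libraries is a spread between pools. Whole leaves were sequenced, so that fewer cells of a type and less RNA per cell cannot be told apart.

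Nitrate enters plant cells through proton-coupled carriers. Members of the NRT1 family work mostly at high nitrate, and in Arabidopsis NRT1.1 also acts as a nitrate sensor. Carriers of the NRT2 family work at low nitrate and need a small partner protein, NAR2, to reach the plasma membrane. Inside the cell, nitrate reductase makes nitrite in the cytosol, and nitrite reductase, a siroheme enzyme fed by ferredoxin, turns it into ammonium in the plastid. In maize leaves this reduction takes place mainly in the mesophyll. NIN-like proteins (NLPs) are transcription factors that switch on genes of this pathway when nitrate arrives.

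The 8 libraries whose reads were tested held 22775151 to 40283408 reads assigned to genes. Biological replicate 3 stood apart, with a mean distance to the other libraries of 0.909 on the log2 scale, where the other 8 lay at 0.576 to 0.650. For every weed-free and artificial library whose reads were tested, the study lists a closer read total for the same replicate of the other group. The totals of the biological libraries lie close to those listed under their own name. The weed-free and artificial group names may therefore be exchanged, and every direction below that involves either group rests on the deposited labels. With exchanged labels, artificial against control would change sign, and biological light against the control and against artificial light would change places. Markers of the leaf were abundant in every library, with a summed level of 18802 to 29166 TPM for the 3 mesophyll genes pep1, ppdk1 and mdh6. Of the 2 root markers found among 6 listed, rtcs was listed at 0 TPM in every library and rth3 at 0.808 to 2.73 TPM.

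The nitrite reductase gene was by far the most abundant of the 6, and the NLP gene was close to silent. Levels between genes are compared in TPM, which corrects for gene length and library size. nir ranged from 236 to 349 TPM over the 9 libraries, and its median of 288 TPM lay at the 98.7th percentile of the 32668 genes with a median above 0. nrt1.1 followed at 18.5 to 30.2 TPM, and none of its libraries reached the range of nir. nrt1.2 lay at 4.48 to 9.72 TPM and NAR2.2 at 4.23 to 10.1 TPM, and these ranges overlapped. NAR2.1 came next at 0.843 to 4.58 TPM, with biological replicate 3 above the lowest values of nrt1.2 and NAR2.2. NLP8 lay last, at 0.0242 to 0.179 TPM.

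**Figure D1:**
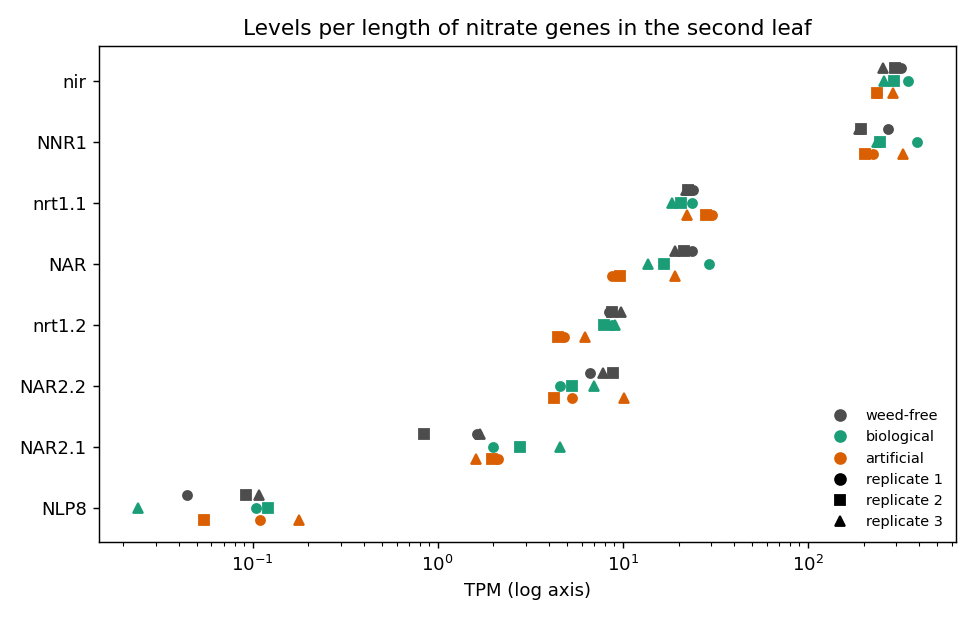
Levels of the 6 genes and of the nitrate reductase genes NNR1 and NAR in TPM, on a log axis, with 1 point per library, colored by group and shaped by replicate. nir and NNR1 lie at 188 TPM or above in every library and NLP8 at 0.179 TPM or below, and nrt2.1 and nrt2.2 are left out because they are listed at 0 in most libraries.

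The artificial points of nrt1.2 lie to the left of the other points of that gene in this plot. For the tests, counts divided by the size factor of each library (normalized counts) were put on the scale log2(normalized count + 1) and compared with limma, with the threshold set at an adjusted p of 0.1 over all genes tested. Fold changes are on this scale, which understates the change of low genes.

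nrt1.2 was the 1 gene of the 6 that passed a test, and it did so under artificial low R:FR light. This low-affinity nitrate transporter gene lies on chromosome 1 (114276445 to 114278942, minus strand, Zm-B73-REFERENCE-NAM-5.0). Its normalized count was 399, 411 and 439.7 in weed-free replicates 1, 2 and 3. Under artificial light it was 215, 218 and 277, and under biological light 406, 359 and 502.5. Each artificial library therefore lay below each library of the other groups, while the biological libraries fell on both sides of the control. The mean fell by 43.2% under artificial light, from 417 ± 20.7 to 237 ± 34.9 (SD, n = 3 libraries each), and the log2 fold change was -0.82 with a standard error (SE) of 0.12 (95% interval -1.09 to -0.55, limma adjusted p = 0.00684). Of the 5 tested genes 1 passed there, in a comparison in which 21.8% of all 23450 genes passed, 9.98% as higher and 11.9% as lower. The control and artificial groups did not overlap, with lower values under artificial light, at 17.5% of all genes.

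Under biological light nrt1.2 did not move away from the control. Its mean was 422.5 ± 73.05 (SD, n = 3), with a log2 fold change of 0.0069 (SE 0.15, 95% interval -0.35 to 0.37, limma adjusted p = 0.991). Set directly against artificial light it was higher in 3 of 3 biological libraries, by 0.83 on the log2 scale (SE 0.18, 95% interval 0.40 to 1.26). With an unadjusted p of 0.00254 in limma, this difference missed the threshold after adjustment (adjusted p = 0.253). It passed when all 9 libraries entered 1 fit (limma adjusted p = 0.0755). Between biological and artificial light limma called 0% of 23476 genes, of which 1962 had an unadjusted p under 0.05, while edgeR called 0 and DESeq2 262. So the change against the control was called under artificial light and not under biological light, and the test of the difference between both did not pass.

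The fall of nrt1.2 under artificial light kept its call under each of the 18 alternatives tried. The log2 fold change ran from -0.94 to -0.69 and the adjusted p from 0.00014 to 0.0405. On TPM values it was -0.69 (limma adjusted p = 0.0304). DESeq2 on the whole reads of artificial replicates 1 and 3 gave -0.76 (DESeq2 adjusted p = 0.00014). Behind these values stood 221 and 362 reads of the gene in artificial replicates 1 and 3 and 322 to 464 in each control library. Artificial replicate 2, with 219 reads of the gene, did not enter tests on reads. The summed level of the bundle sheath markers me3 and ssu1 was 7676 to 10185 TPM under artificial light, 9634 to 10557 TPM in the control and 10988 to 12064 TPM under biological light. That of the 3 mesophyll markers was 26350 to 27576 TPM under artificial light and 23580 to 26506 TPM in the control. The part of cell composition in the fall of nrt1.2 was not tested.

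**Figure D2:**
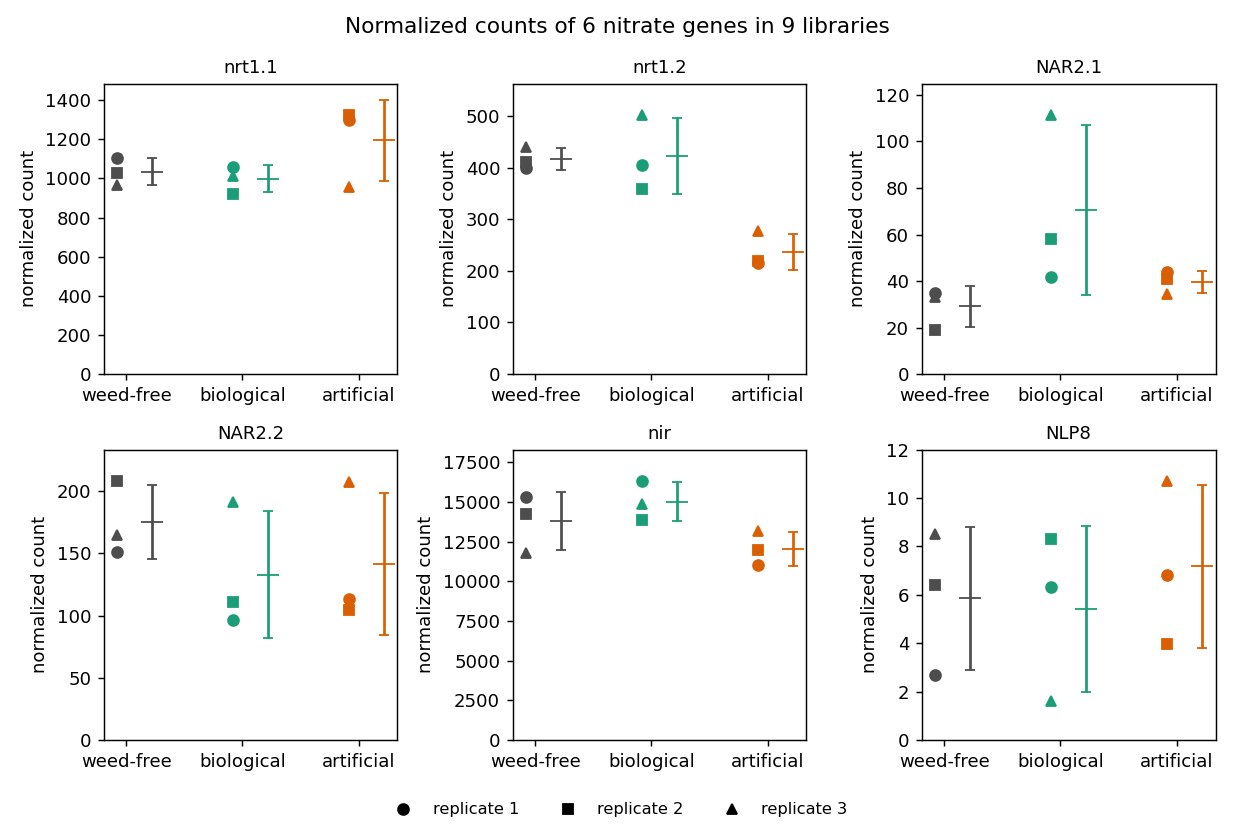
Normalized counts of the 6 genes in each library on linear axes that start at 0, with 1 point per library, shaped by replicate, and the mean with its SD (n = 3) as a bar beside the points. The artificial libraries of nrt1.2 (215 to 277) lie below all libraries of the other groups (359 to 502.5), and for the other genes the artificial libraries overlap the control.

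nrt1.1, the other low-affinity transporter gene, lies on the same chromosome (114405719 to 114420763, plus strand), 126.8 kb from nrt1.2 and with 2 annotated genes between them. The normalized count of nrt1.1 was 1107, 1027 and 967 in the control and 1059, 922 and 1011 under biological light. Under artificial light it was 1299.9, 1325 and 957, so that replicates 1 and 2 lay above every control library and replicate 3 below all of them. The log2 fold change was 0.19 under artificial light (SE 0.13, 95% interval -0.09 to 0.48, limma adjusted p = 0.337). It passed only without artificial replicate 3, at 0.35 (SE 0.09, limma adjusted p = 0.034). Under biological light it was -0.05 (SE 0.11, 95% interval -0.32 to 0.22, limma adjusted p = 0.907). Between both treatments nrt1.1 differed by -0.25 (SE 0.16, 95% interval -0.62 to 0.13, limma adjusted p = 0.749).

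Within a library, the ratio of nrt1.2 to nrt1.1 does not depend on how libraries are scaled to each other. In TPM it was 0.350, 0.388 and 0.445 in the control libraries. Under artificial light it was 0.160, 0.159 and 0.282, and under biological light 0.372, 0.383 and 0.491. The artificial libraries lay below all 6 others, and in each group the highest ratio was that of replicate 3. This ratio was chosen after the values of both genes were seen and is given without a test.

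The partner genes NAR2.1 and NAR2.2 had log2 fold changes of opposite sign against the control, but neither passed a test with all libraries. NAR2.1 lies on chromosome 5 (184432781 to 184433898, minus strand). Its normalized count was 34.9, 19.2 and 33.2 in the control, 41.7, 58.1 and 111 under biological light, and 43.8, 40.9 and 34.4 under artificial light. The 3 biological values all exceeded the 3 control values, and biological replicate 3, the library that stood apart from all others, had the highest value. Against the control, NAR2.1 differed by 1.17 on the log2 scale (SE 0.41, 95% interval 0.20 to 2.14), with a limma adjusted p of 0.424 and an unadjusted p of 0.0242. Without biological replicate 3 it was 0.79 (limma adjusted p = 0.209). It rests on few reads, 15 to 39 per control library and 33 to 138 per biological library. Under biological light 0 of the 5 tested genes passed, 1 of them with an unadjusted p under 0.05, and edgeR and DESeq2 also called 0. In that comparison 0.0466% of all 23600 genes passed in limma, and the groups did not overlap for 8.58% of genes with the biological group higher and for 9.13% with it lower.

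Under artificial light NAR2.1 overlapped the control, with a log2 fold change of 0.48 (SE 0.28, 95% interval -0.15 to 1.103, limma adjusted p = 0.284). It was 0.70 higher under biological than under artificial light on the log2 scale (SE 0.37, 95% interval -0.17 to 1.56, limma adjusted p = 0.692).

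NAR2.2, on chromosome 2 (38821898 to 38823469, plus strand), was the more abundant partner gene in every library. Its normalized count was 151, 208 and 165 in the control, 96.1, 111 and 191 under biological light and 113, 105 and 207 under artificial light. In both treatments replicates 1 and 2 lay below every control library, and replicate 3 lay within the control range. In TPM, artificial replicate 3 (10.1 TPM) lay above every control library (6.63 to 8.86 TPM). The log2 fold change was -0.45 under biological light (SE 0.28, 95% interval -1.104 to 0.21, limma adjusted p = 0.663). It was -0.36 under artificial light (SE 0.25, 95% interval -0.93 to 0.21, limma adjusted p = 0.373). Replicate 3 decided both calls. NAR2.2 passed as lower without biological replicate 3 (-0.74, SE 0.18, limma adjusted p = 0.0661) and without artificial replicate 3 (-0.67, SE 0.17, limma adjusted p = 0.0336). The 2 comparisons share the control libraries, so they are not independent of each other. Directly compared, the treatments differed by -0.09 (SE 0.35, 95% interval -0.92 to 0.75, limma adjusted p = 0.951).

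The ratio of NAR2.1 to NAR2.2 in TPM was 0.247, 0.0952 and 0.215 in the control. It was 0.435, 0.521 and 0.655 under biological light and 0.401, 0.463 and 0.160 under artificial light. The 3 biological ratios all exceeded those of the control, as did artificial replicates 1 and 2 but not 3. This ratio, too, was chosen after the values were seen. How alike the sequences of these genes are was not examined here. Of the NRT2 carriers that NAR2 proteins serve, nrt2.1 and nrt2.2 were looked up, and other NRT2-type genes were not analysed here. nrt2.1 (LOC542092) was listed at 0 TPM in every library but biological replicate 2, where it was listed at 0.00088 TPM, and nrt2.2 (LOC606442) at 0 in every library but weed-free replicate 3, where it was listed at 0.00075 TPM. The pair lies 9.07 kb apart on chromosome 4, and reads that fit both may have been left out, so these values do not show that the genes were silent.

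**Figure D3:**
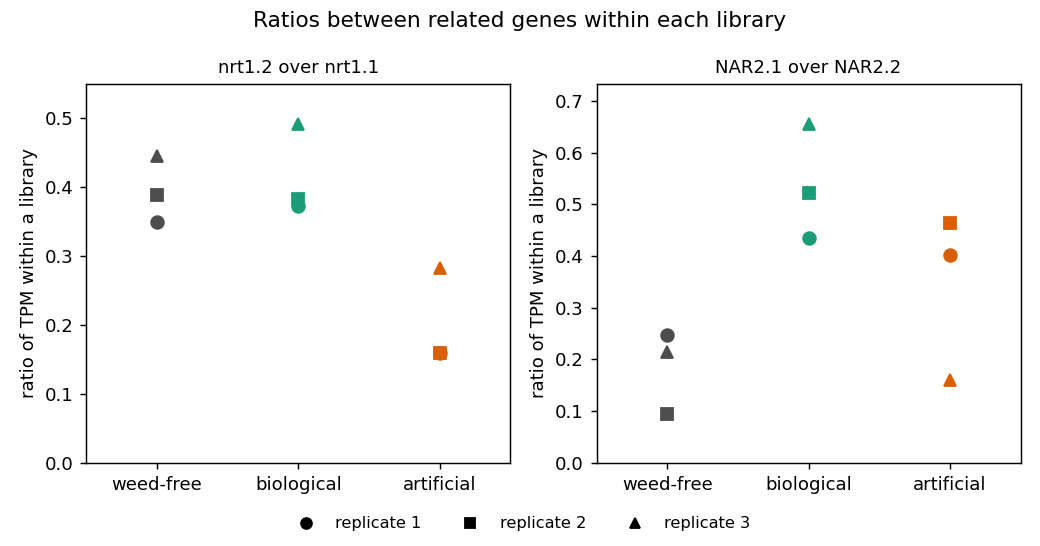
Ratio of nrt1.2 to nrt1.1 (left) and of NAR2.1 to NAR2.2 (right) in TPM, on linear axes from 0, with 1 point per library, shaped by replicate. The artificial libraries (0.159 to 0.282) lie lowest on the left, and the biological libraries (0.435 to 0.655) lie above every control library on the right.

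nir encodes nitrite reductase and lies on chromosome 4 (183572693 to 183576237 in the deposited files, plus strand). For nir the normalized counts were 15315, 14245 and 11761 in the control, 16328, 13834 and 14893 under biological light, and 10993, 11995 and 13133 under artificial light. Every biological library lay above every artificial library, and the control libraries spanned most of both ranges. Between the treatments the log2 difference was 0.32 (SE 0.13, 95% interval 0.02 to 0.62), with an unadjusted p of 0.0395 and a limma adjusted p of 0.553. Among all genes tested, 8.93% were higher in every biological than in every artificial library, and 6.84% lower. Of the 5 genes, nir and nrt1.2 showed this, and 0 of the 5 passed, with 2 at an unadjusted p under 0.05 (edgeR and DESeq2 also called 0). In TPM the biological and artificial libraries of nir overlapped, at 349, 292 and 259 against 237, 236 and 288. Against the control the changes of nir stayed within 95% intervals of -0.19 to 0.45 under biological and -0.45 to 0.07 under artificial light on the log2 scale.

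**Figure D4:**
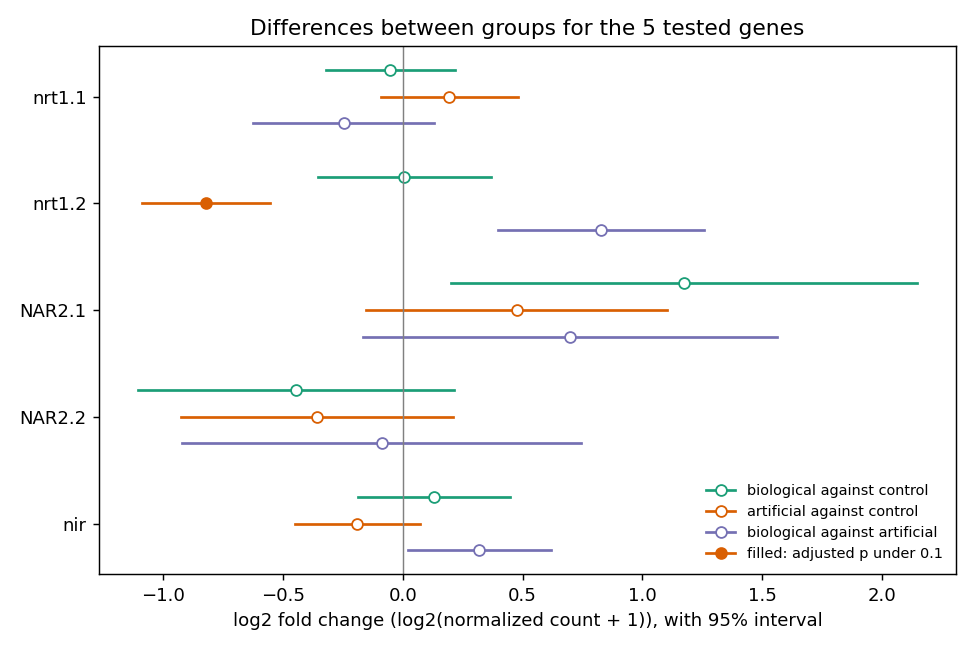
Log2 fold changes of the 5 tested genes in the 3 comparisons, with limma 95% intervals as lines and points filled where the adjusted p over all genes was under 0.1. The filled point is nrt1.2 under artificial light against the control (-0.82), and the intervals that leave out 0 without passing are NAR2.1 under biological light and nrt1.2 and nir between the treatments.

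NLP8, on chromosome 6 (144691326 to 144700523, plus strand), is named as a gene of a NIN-like protein, and its counterpart in Arabidopsis was not determined here. NLP8 had normalized counts of 2.69, 6.39 and 8.53 in the control, 6.32, 8.31 and 1.62 under biological light and 6.82, 3.99 and 10.7 under artificial light. These values stand for 2 to 14 reads per library, and the groups overlapped throughout. The gene fell below the filter of 10 in at least 3 libraries and was not tested. With no filter its log2 fold changes were -0.18 under biological light (SE 0.63, limma adjusted p = 0.953) and 0.27 under artificial light (SE 0.52, limma adjusted p = 0.795), so that a difference was not detectable at this depth.

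Over the 5 tested genes the median log2 fold change was 0.0069 under biological light, where that of all genes was -0.05. Under artificial light it was -0.19, where that of all genes was 0.01. Artificial replicate 3 lay nearer to the control than both other artificial libraries for nrt1.2, and it lay on the other side of the control from them for nrt1.1 and, against the control mean, for NAR2.2. Without it 3 of the 5 genes passed under artificial light: nrt1.1 higher and nrt1.2 and NAR2.2 lower. In that fit 5140 of all 23450 genes passed, 2255 as higher and 2885 as lower.

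**Figure D5:**
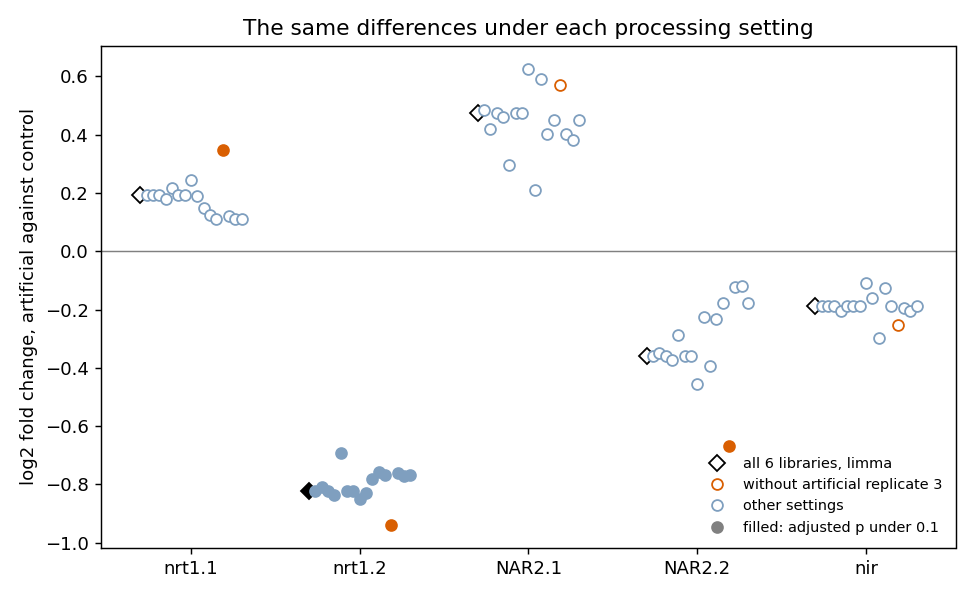
Log2 fold changes of the 5 tested genes under artificial light against the control with each processing setting, 1 point per setting, filled where the adjusted p was under 0.1. nrt1.2 is filled throughout, at -0.94 to -0.69, and nrt1.1 and NAR2.2 are filled only without artificial replicate 3.

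Other genes of the pathway were taken from 12 lists by gene name, of which 5 matched none. Besides the members, 7 genes were found, and 5 of them were tested. Under artificial light 1 of these 5 fell and 0 rose, with 2 of the 5 at an unadjusted p under 0.05. Over all genes 21.8% passed there and 7051 of 23450 had an unadjusted p under 0.05, so the count is close to the background. Under biological light and between the treatments limma called 0 of the 5, and 0 had an unadjusted p under 0.05. The untested pair, nrt2.1 and nrt2.2, had values in TPM alone. The gene that fell was NAR (LOC100383210), listed with the synonym NR for nitrate reductase and distinct from the NAR2 partners. NAR had normalized counts of 1534, 1405 and 1204 in the control, 558, 682 and 1177 under artificial light and 1862, 1077 and 1087 under biological light. Artificial replicates 1 and 2 lay far below the control and replicate 3 just below its lowest value. In limma NAR fell by a log2 fold change of -0.84 (SE 0.24, adjusted p = 0.0483). The call was lost on TPM values (-0.80, limma adjusted p = 0.104) and with all 9 libraries in 1 fit (limma adjusted p = 0.169). It was also lost in DESeq2 (-0.68, adjusted p = 0.289) and edgeR (adjusted p = 0.102), where artificial replicate 2 did not enter. The same held without weed-free replicate 1 or 2 or artificial replicate 1 (-0.77, -0.83 and -0.62).

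NNR1 (LOC542278), the other nitrate reductase gene found by name, lay at 188 to 386 TPM, a range that overlapped that of nir. The search by name may have missed nitrate reductase genes that are listed under other names. For NNR1 the normalized counts were 19632, 13718 and 13033 in the control, 27044, 17250 and 20187 under biological light and 15625, 15492 and 22045 under artificial light. The groups overlapped, with log2 fold changes of 0.47 under biological light (SE 0.22, limma adjusted p = 0.542) and 0.20 under artificial light (SE 0.18, limma adjusted p = 0.499). The remaining 3 tested genes, a pair named CNX5 for molybdenum cofactor synthesis and CBL1 for a calcium sensor, had log2 fold changes of -0.16 to 0.19 over the 3 comparisons, and none passed in limma.

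The genes whose pattern over the 9 libraries was most like that of a member were taken among the 18051 genes whose mean normalized count reached 50, by Pearson's r of log2(normalized count + 1). The points of such an r share libraries and groups, and it is given as a description. For nrt1.2 these were LOC100285105 (r = 0.994), LOC100283035 (r = 0.991) and LOC100217011 (r = 0.989). For nrt1.1 the highest was LOC100279751 (r = 0.951), and for nir LOC100272772 (r = 0.942). For NAR2.1 it was LOC100280093, also listed as bHLH172 (r = 0.952), and for NAR2.2 LOC100281980 (r = 0.955), followed by LOC100282657, also listed as PP2C3 (r = 0.949), and ts5 (r = 0.948).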

How the data were processed

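Normalized counts, TPM, FPKM and coverage were deposited for 9 maize leaf libraries, 3 per group, with groups taken from the sample labels. The authors deposited a signal table in which the read count of each of 30184 genes is divided by 1 size factor per library. Their deposited files per library hold TPM and FPKM values and the coverage of each gene. FPKM and coverage were not used. The authors' own comparison tables (mean, log2 fold change, p-value) were not used either, and 0 columns of values were left unmapped. Bowtie2 2.4.3, HTSeq 0.13.5 and DESeq2 1.30.1 are listed in the submitters' notes, whereas the methods of the study describe STAR and featureCounts, so the counting step is uncertain. Reads with more than 1 placement may have been left out of the counts, which would lower near-identical genes.

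For each comparison of 6 libraries, genes that reached a normalized count of 10 in 3 or more of them were tested with limma 3.58.1 (variance trend, pseudocount 1, Benjamini-Hochberg over all genes tested, adjusted p under 0.1). The script was tested on simulated data. Whole reads (100% of values within 0.01 of a multiple of 1 step per library) were recovered, and those of 8 libraries were tested with edgeR 4.0.16 and DESeq2 1.42.0 (R 4.3.3). In artificial replicate 2, 1 read is worth 0.997, and a rule that left out steps within 0.01 of 1 kept it out of tests on reads. Its step was not in doubt, as 100% of its values were multiples of 0.997 and 10.9% were whole numbers as deposited. Depth ranged from 22775151 to 40283408 reads. Other alternatives were an adjusted p under 0.05, a fold of 1.5, pseudocounts of 0.5 and 5, no filter, TMM, TPM, all 9 libraries in 1 fit, the replicate block and each library left out in turn. A fit over artificial replicates 1 and 3 was added after seeing the data and is the same as that without artificial replicate 2. The study arranged its experiments in randomized complete blocks, and the main fits here carried no block. Same-numbered libraries of the treatments deviated together, though weakly (correlations across genes of 0.122, 0.231 and 0.130), so numbers pair biological with artificial libraries by this check. The paired fit called 0 genes there, as did the main fit, and the intervals given between the treatments are unpaired. With pairing the SE was smaller for nrt1.2 (0.13, limma adjusted p = 0.182) and NAR2.2 (0.16, limma adjusted p = 0.858). It changed little for nrt1.1 (0.16), NAR2.1 (0.38) and nir (0.14). RefSeq gene names were matched for 29180 of the 30184 identifiers (assembly Zm-B73-REFERENCE-NAM-5.0). Sequences were not analysed here. The rule for named genes took the 6 members, up to 2 called genes per direction of each pathway list and the 3 genes most like each member. Members and lists were chosen with earlier results of these data known.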

Additional observations from a re-analysis of the deposited data

Results flagged for a closer look

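nir is listed here for its difference between the treatments. All 3 biological libraries lay above the control mean of 13774 normalized counts and all 3 artificial libraries lay below it, but both groups overlapped the control libraries and neither passed against them (limma adjusted p = 0.798 and 0.302). In TPM the pattern did not hold, as biological replicate 3 (259 TPM) lay below the control mean of 289 TPM. The direct test gave a log2 difference of 0.32 between biological and artificial light (standard error 0.13, limma adjusted p = 0.553), which did not pass over all genes.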

How the results depend on the processing

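nrt1.2 kept its call under artificial light in every alternative run. All 5 genes kept their direction under artificial light against the control. Leaving out single libraries moved the log2 fold change of nrt1.1 between 0.11 and 0.35 that of NAR2.1 between 0.21 and 0.63, that of NAR2.2 between -0.67 and -0.18 and that of nir between -0.30 and -0.11 there, and the number of the 5 genes called between 1 and 3. Under biological light against the control, leaving out single libraries gave -0.098 to 0.0041 for nrt1.1, -0.12 to 0.12 for nrt1.2, 0.79 to 1.49 for NAR2.1, -0.74 to -0.25 for NAR2.2, 0.02 to 0.21 for nir and -0.35 to 0.050 for NAR, with 0 to 1 of the 5 genes called, and TPM gave -0.051 for nrt1.2. Between the treatments NAR2.2 ran from -0.38 to 0.22 and NAR2.1 from 0.31 to 1.01 in this way. With all 9 libraries in 1 fit nrt1.2 (0.83) was the 1 gene of the 5 called there. Over all genes, the calls under biological light numbered 11, and 2 at an adjusted p under 0.05, 50 on TPM, 94 with all 9 libraries in 1 fit, 501 in DESeq2 and 0 to 1932 without single libraries (163 without biological replicate 2 and 1932 without biological replicate 3). Under artificial light they numbered 5121, and 2931 at an adjusted p under 0.05, 2216 with a fold of at least 1.5, 1134 with all 9 libraries and 2334 to 5408 without single libraries. Between the treatments they numbered 0, and 24 with a pseudocount of 5, 18 on TPM, 263 with all 9 libraries, 262 in DESeq2 and 0 to 106 without single libraries (106 without biological replicate 3). The cause of these shifts was not tested. With the replicate block, 1 gene was called under biological and 5120 under artificial light against the control, where the same-numbered libraries did not all deviate together (correlations of -0.012 to 0.125), and no call of a gene named here changed. Few reads limit the precision of NAR2.1 and NLP8.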

Other observations

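Of the genes annotated between nrt1.2 and nrt1.1, LOC100191452 had a log2 fold change of 0.28 under artificial light (standard error 0.13, limma adjusted p = 0.185), which did not pass, while nrt1.2 beside it fell. LOC100381897, the other gene between them and annotated as a long noncoding RNA whose span overlaps that of LOC100191452, stood at -0.22 (standard error 0.51, limma adjusted p = 0.811). The pair was looked at after the values of nrt1.2 were seen.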
